A study of Homo sapiens with 12 samples.

Results

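The genes described here are 37 genes of the TCA cycle and of the routes by which pyruvate and glutamate enter it, read out in 2 triple-negative breast cancer cell lines in which the long non-coding RNA SOX9-AS1 was targeted. They were chosen by symbol from the deposited gene count tables, which hold 60675 genes, and each of the 37 symbols matched 1 gene. By role they are 2 subunits of the mitochondrial pyruvate carrier, 5 genes of the pyruvate dehydrogenase complex, the 4 kinases and 2 phosphatases that switch that complex, 6 genes of citrate and isocitrate conversion, 3 of 2-oxoglutarate dehydrogenase, 3 of succinyl-CoA ligase, 4 of succinate dehydrogenase, 5 of fumarate and malate conversion, and 3 of glutamate and aspartate conversion.

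RNA was sequenced from 4 groups of 3 libraries each. They are HCC1187 cells given sh-SOX9-AS1 (libraries S10 to S12), HCC1187 cells given sh-CONTROL (S7 to S9), MDA-MB-468 cells given sh-SOX9-AS1 (S4 to S6) and MDA-MB-468 cells given sh-CONTROL (S1 to S3). sh-SOX9-AS1 is a short hairpin RNA against SOX9-AS1, and sh-CONTROL is a hairpin against the bacterial gene LacZ. HCC1187 cells were grown in RPMI-1640 and MDA-MB-468 cells in DMEM, both with 10% fetal bovine serum at 5% CO2, and RNA was taken from cultures transfected for 48 h. A level below is in CPM, counts scaled to a common library size with the trimmed mean of M values (TMM), and its error is an SD over 3 libraries. A log2 fold change is sh-SOX9-AS1 over sh-CONTROL with its standard error, and its adjusted p is from the quasi-likelihood test of edgeR with Benjamini-Hochberg adjustment over all genes tested. A gene passed at an adjusted p under 0.05, and "rose" and "fell" are used only for genes that passed. The labels do not state separate cultures for the 3 libraries in a group, so the p-values measure only the spread between these libraries, which may be technical.

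Pyruvate made by glycolysis crosses the inner mitochondrial membrane through a carrier made of MPC1 and MPC2 and is turned into acetyl-CoA by the pyruvate dehydrogenase complex. Kinases (PDK1 to PDK4) shut that complex off by phosphorylation and phosphatases (PDP1 and PDP2) turn it on again. The cycle condenses acetyl-CoA with oxaloacetate to citrate and oxidises it back to oxaloacetate. Glutamate feeds it at 2-oxoglutarate through glutamate dehydrogenase and the aspartate aminotransferases. Tumour cells are known to draw citrate and aspartate out of the cycle for lipid and nucleotide synthesis and to refill it from glutamine.

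Of the 3 lanes of each library only lane 1 was used, so all counts here are of that lane. Totals in it ran from 6026376 to 10160040 counts per library, and the 37 genes together held 0.342% to 0.400% of them. The target was checked first. HCC1187 sh-SOX9-AS1 libraries had 1.16, 0.70 and 0.80 CPM of SOX9-AS1 and sh-CONTROL libraries 2.32, 1.40 and 1.74 CPM, from 5 to 24 counts a library, and SOX9-AS1 fell (log2 fold change −1.08 ± 0.36, adjusted p = 0.0349 in edgeR). MDA-MB-468 sh-SOX9-AS1 libraries had 5.54, 5.03 and 5.57 CPM, against 6.04, 7.28 and 6.54 CPM in sh-CONTROL libraries of that line, and SOX9-AS1 did not pass with S4 (−0.30 ± 0.20, adjusted p = 0.417) or without it (−0.32 ± 0.23, adjusted p = 0.274). SOX9 was the second check. It fell in HCC1187 (log2 fold change −0.49), with 12.1, 12.7 and 8.75 CPM against 13.9, 16.4 and 15.6 CPM in sh-CONTROL libraries. In MDA-MB-468 SOX9 fell without S4 (−0.82) and did not pass with it (−0.68). It stood at 149.5, 120.3 and 111.6 CPM in S4 to S6, against 229.6, 203.2 and 180.2 CPM in sh-CONTROL libraries, so S4 too was below every control. S4 is absent from the deposited sample table that lists the other 11 libraries. Across the genes tested the correlation of S4 was 0.977 and 0.974 with the knockdown libraries S5 and S6 and 0.991 to 0.995 with the 3 MDA-MB-468 controls. S5 with S6 gave 0.995. MDA-MB-468 counts and calls are therefore given with and without S4, the second with 2 sh-SOX9-AS1 against 3 sh-CONTROL libraries. S4 was set aside partly on these same counts, so adjusted p-values without it depend on that choice and can be too small. The level of SOX9-AS1 did not set S4 apart (5.54 CPM, against 5.03 and 5.57 CPM in S5 and S6). The labels call both lines basal-like. MDA-MB-468 controls carried the basal markers KRT5 (1417 to 1599 CPM) and EGFR (5999 to 6454 CPM). KRT14 stood there at 10 to 21.6 CPM and FOXC1 at 72.8 to 95.2 CPM. In HCC1187 controls KRT5 stood at 0 to 0.19 CPM, KRT14 at 0 to 0.11 CPM and EGFR at 52.7 to 57.2 CPM, with FOXC1 at 173 to 191 CPM. SOX10 had 0 CPM in every library of both lines. Of 7 basal-like markers tested between the controls, 6 were lower in HCC1187 and 1 was higher. All 5 luminal markers tested were lower there too. Leukocyte markers summed to at most 0.80 CPM in any library and endothelial markers to at most 6.28 CPM. Fibroblast markers summed to 58.45 to 69.55 CPM in HCC1187 controls and to 12.19 to 15.52 CPM in MDA-MB-468 controls.

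**Figure D1:**
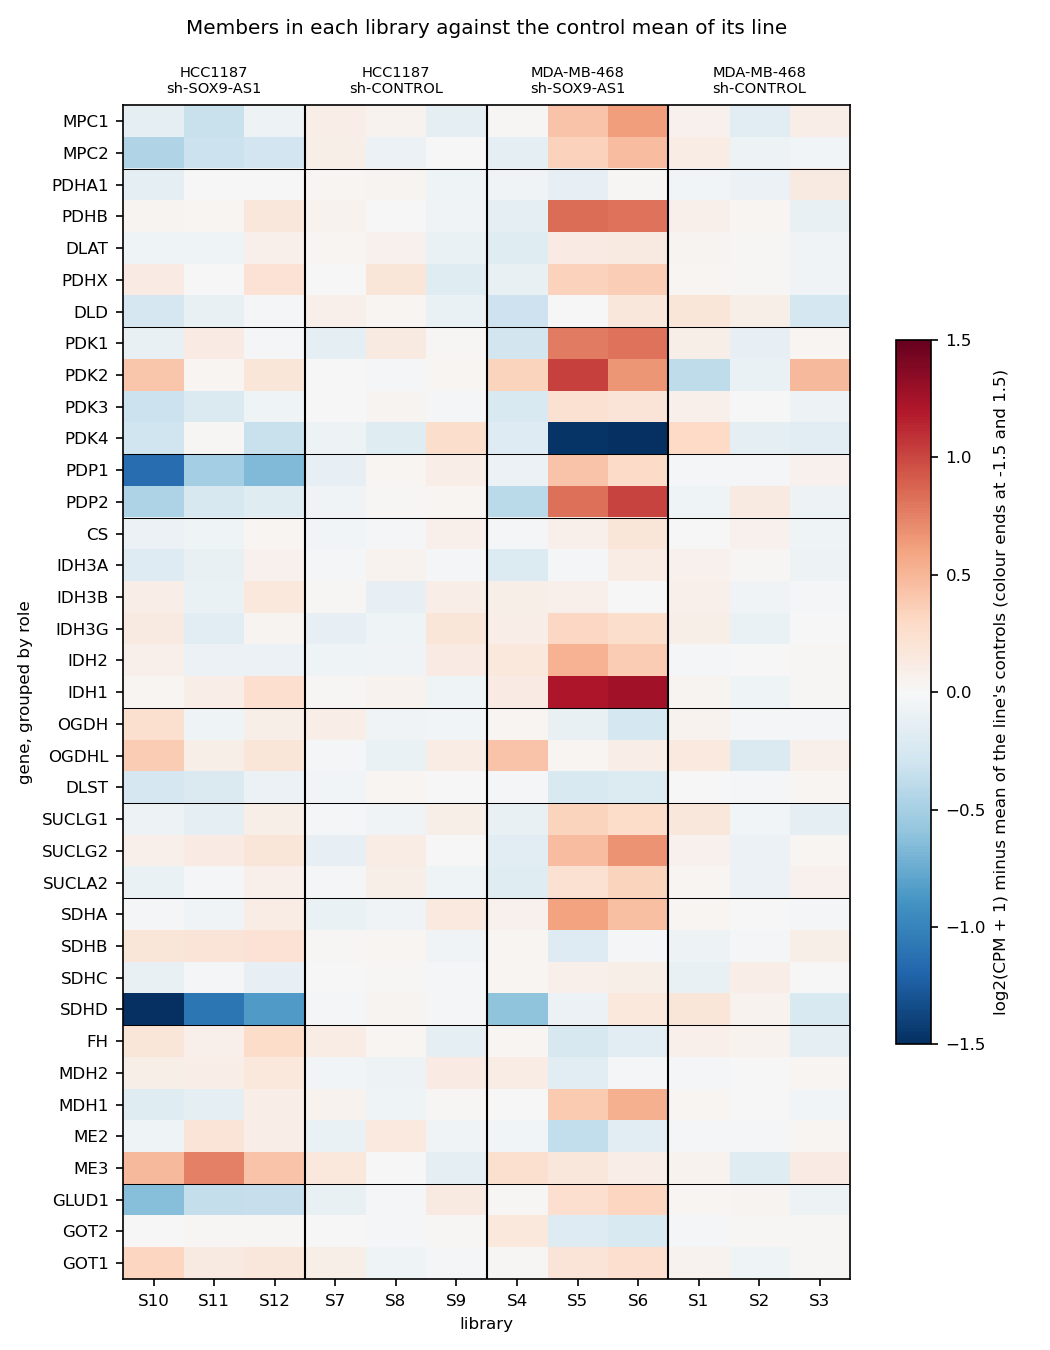
Each row is 1 of the 37 genes and each column 1 library; colour is log2(CPM + 1) minus the mean of the 3 control libraries of the same line, and black lines separate groups and roles. SDHD and PDP1 are blue in all 3 HCC1187 sh-SOX9-AS1 libraries, IDH1, PDHB and PDK1 are red in S5 and S6, and S4 has 1 gene beyond 0.5 of its controls, SDHD at −0.60.

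In HCC1187, 5 of the 36 genes tested fell on knockdown, 0 rose and 31 did not pass; 9 had an unadjusted p under 0.05. The 5 were SDHD, PDP1, GLUD1, MPC2 and PDP2, so they include the phosphatase pair that activates pyruvate dehydrogenase, a subunit of the pyruvate carrier, glutamate dehydrogenase and a membrane anchor of succinate dehydrogenase. Over all genes tested 22.8% passed, 13.1% as lower and 9.78% as higher, so the share of these genes that passed was not above the background. Their median log2 fold change was −0.02, against 0.01 over all genes tested. With DESeq2, 4 genes passed. The basal-like markers summed to 206 to 224 CPM in sh-SOX9-AS1 libraries and 250 to 278 CPM in sh-CONTROL libraries (2 of 4 tested fell, KRT6B at 0 in all), and the luminal markers to 254 to 274 CPM in sh-SOX9-AS1 libraries and 310 to 322 CPM in sh-CONTROL libraries (3 of 4 tested fell). The part of either in these results was not tested, and in bulk RNA fewer cells of a kind and less RNA per cell cannot be told apart. With library totals as the only scaling the 5 calls split into 4 falls and 1 rise, that of SDHB (0.25 ± 0.08, adjusted p = 0.0303).

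SDHD, the small membrane subunit that holds succinate dehydrogenase in the inner membrane and helps to bind ubiquinone, had the largest log2 fold change of the 36 genes tested. It stood at 20.9, 30.2 and 35.6 CPM in HCC1187 sh-SOX9-AS1 libraries, against 64.4, 67.3 and 64.0 CPM in sh-CONTROL libraries. The groups did not overlap, and the highest sh-SOX9-AS1 library was far under the lowest control. SDHD fell 2.23-fold (log2 fold change −1.16 ± 0.13, adjusted p = 1.04e-06 in edgeR, n = 3 per group). The catalytic subunit SDHA (0.01 ± 0.09), the iron-sulphur subunit SDHB (0.19 ± 0.08) and the other anchor SDHC (−0.10 ± 0.08) did not pass. SDHD lies on the plus strand of chromosome 11 (GRCh38, 112086773 to 112120013). It shares 11.2% of its exon bases with AP002884.3 on the same strand and 0.916% with TIMM8B on the other, and reads in these stretches may come from either gene. Reads on its pseudogene SDHDP6 reached at most 1.12 CPM in any library.

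PDP1 and PDP2 are the catalytic subunits of pyruvate dehydrogenase phosphatase, of which PDP1 is the calcium-sensitive form. PDP1 stood at 17.5, 27.6 and 24.7 CPM in HCC1187 sh-SOX9-AS1 libraries and at 36.3, 40.5 and 42.8 CPM in sh-CONTROL libraries. It fell 1.72-fold with no overlap between the groups (−0.78 ± 0.13, adjusted p = 0.000164 in edgeR). PDP2 stood at 30.1, 35.4 and 36.9 CPM in sh-SOX9-AS1 libraries, against 40.4, 42.6 and 43.0 CPM in sh-CONTROL libraries. Its groups did not overlap either, but its fall of 1.23-fold was near the threshold (−0.30 ± 0.10, adjusted p = 0.0411). PDP2 did not pass with DESeq2 (adjusted p = 0.0601), with library totals only (0.0901), with all 12 libraries in 1 fit (0.478), or without S7 (0.0624), S8 (0.119), S9 (0.104) or S10 (0.121). The kinases that oppose them, PDK1 (−0.02 ± 0.10), PDK2 (0.21 ± 0.11), PDK3 (−0.21 ± 0.09) and PDK4 (−0.26 ± 0.18), did not pass.

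GLUD1, the mitochondrial glutamate dehydrogenase that converts glutamate to 2-oxoglutarate, stood at 118, 144 and 145 CPM in HCC1187 sh-SOX9-AS1 libraries, against 170, 183 and 202 CPM in sh-CONTROL libraries. It fell 1.37-fold with no overlap (−0.46 ± 0.09, adjusted p = 0.00116 in edgeR). The aminotransferases GOT1 of the cytosol (0.20 ± 0.09) and GOT2 of mitochondria (0.00 ± 0.08) did not pass. MPC2 stood at 27.8, 30.4 and 31.2 CPM in sh-SOX9-AS1 libraries and at 40.7, 36.0 and 38.3 CPM in sh-CONTROL libraries. It fell 1.29-fold with no overlap (−0.37 ± 0.10, adjusted p = 0.0138). MPC2 did not pass without S7 (adjusted p = 0.0699) or with all 12 libraries in 1 fit (0.126). Its partner MPC1, without which the carrier does not form, stood at 21.5, 18.5 and 22.5 CPM in sh-SOX9-AS1 libraries and at 25.4, 24.5 and 21.3 CPM in sh-CONTROL libraries, which overlapped (−0.19 ± 0.12, adjusted p = 0.277). GLUD1 shares 13.2% of its exon bases with SHLD2 and MPC2 shares 22.5% with DCAF6, both on the opposite strand, and whether strand was used in counting is not stated. The SDHD, PDP1 and GLUD1 falls passed in every setting tried.

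**Figure D2:**
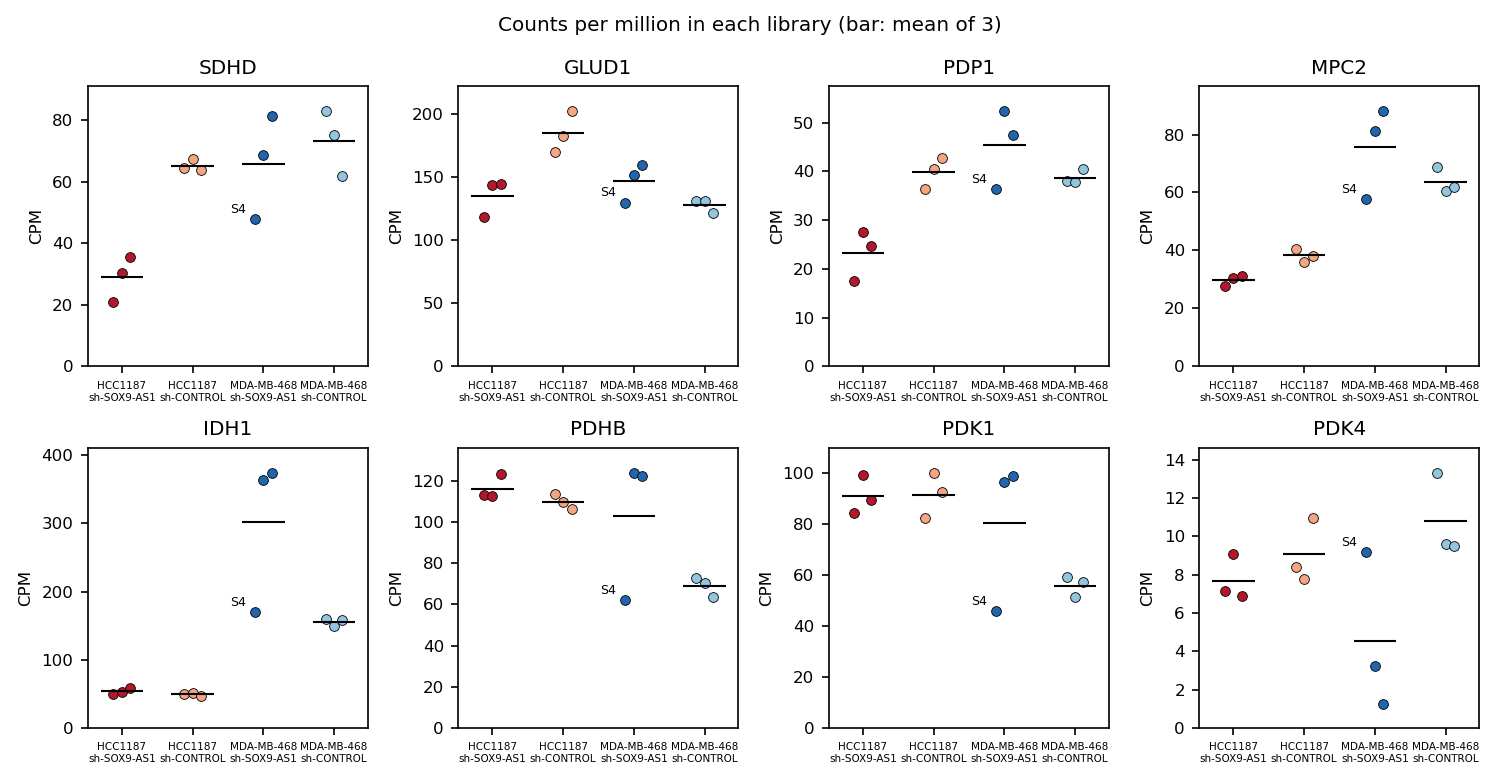
Each panel plots 1 gene in CPM from 0, each point is 1 library, the bar is the mean of the 3 libraries of a group, and S4 is marked. SDHD, GLUD1, PDP1 and MPC2 are lower in all 3 HCC1187 sh-SOX9-AS1 libraries than in any HCC1187 control, and IDH1, PDHB and PDK1 are high in S5 and S6 but not in S4, with PDK4 low there.

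The remaining 31 genes tested in HCC1187 had log2 fold changes between −0.26 and 0.21. The enzymes that carry carbon from acetyl-CoA to 2-oxoglutarate were among them. Citrate synthase CS averaged 207 ± 8.5 CPM in sh-SOX9-AS1 libraries and 212 ± 9.81 CPM in sh-CONTROL libraries (−0.05 ± 0.08). The NAD-linked isocitrate dehydrogenase subunits IDH3A, IDH3B and IDH3G lay between −0.08 and 0.05, and the NADP-linked enzymes IDH1 of the cytosol and IDH2 of mitochondria lay at 0.13 and −0.05. Without regard to the test, 4 genes had every sh-SOX9-AS1 library above every control (PDK2, SDHB, ME3 and GOT1) and 8 had every one below (the 5 that fell, PDK3, DLST and SDHC). Groups did not overlap for 35.9% of all genes. ME3, a mitochondrial malic enzyme, had too few reads in HCC1187 to be tested, with 6, 9 and 9 counts in sh-SOX9-AS1 libraries and 5, 3 and 2 counts in sh-CONTROL libraries. In the fit of all 12 libraries ME3 could be tested and was the 1 gene called higher, beside 3 called lower. It passed the filter there only through MDA-MB-468, whose sh-CONTROL libraries had 168, 115 and 154 counts, so that call is no evidence of a rise. With no filter on low counts, the HCC1187 fit called 0 of the genes higher.

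Promoter sequence is shown for 3 genes that fell in HCC1187 and for PDK4, which fell in MDA-MB-468 without S4, to let the windows be compared. Windows of 300 bases, from 250 before to 50 after a transcript start, were taken from RefSeq (GRCh38.p14), where 34 of the 37 genes had one. Each was searched on both strands for CGCNTGCG, the core of sites of NRF1, a regulator of nuclear genes for mitochondrial proteins, for the ETS family word CCGGAAG and for TCAAGGTCA, a site of the estrogen-related receptors. It was also searched for the E-box CACGTG, the hypoxia-type word TACGTG and the SREBP-type word TCACNCCAC. Matches are in capitals, and the words were chosen with the results known, so they describe the windows only. The 3 genes shown that fell in HCC1187 are those with CGCNTGCG in a window. PDP2, which also fell, had CACGTG and TACGTG but not CGCNTGCG, and no window of it is shown.
SDHD (chr11:112086623-112086922, plus strand): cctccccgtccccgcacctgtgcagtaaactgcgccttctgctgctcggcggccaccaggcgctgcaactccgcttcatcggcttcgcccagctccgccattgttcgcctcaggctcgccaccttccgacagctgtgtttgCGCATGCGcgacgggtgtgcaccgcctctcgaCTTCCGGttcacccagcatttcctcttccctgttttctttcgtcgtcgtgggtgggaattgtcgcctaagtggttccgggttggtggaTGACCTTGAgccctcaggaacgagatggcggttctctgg
GLUD1 (chr10:87094794-87095093, minus strand): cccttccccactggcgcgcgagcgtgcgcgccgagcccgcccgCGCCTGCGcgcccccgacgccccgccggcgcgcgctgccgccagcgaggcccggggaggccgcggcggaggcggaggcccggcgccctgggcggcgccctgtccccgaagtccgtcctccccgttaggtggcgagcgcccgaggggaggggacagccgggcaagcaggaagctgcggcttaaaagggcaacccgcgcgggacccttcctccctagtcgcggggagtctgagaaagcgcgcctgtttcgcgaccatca
MPC2 (chr1:167935947-167936246, minus strand): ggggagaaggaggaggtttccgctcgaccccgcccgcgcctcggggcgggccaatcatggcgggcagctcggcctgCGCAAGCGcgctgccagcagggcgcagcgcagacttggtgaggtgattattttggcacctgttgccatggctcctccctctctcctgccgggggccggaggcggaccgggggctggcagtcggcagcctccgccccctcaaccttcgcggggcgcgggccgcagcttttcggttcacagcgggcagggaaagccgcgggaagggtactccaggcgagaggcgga
PDK4 (chr7:95596467-95596766, minus strand): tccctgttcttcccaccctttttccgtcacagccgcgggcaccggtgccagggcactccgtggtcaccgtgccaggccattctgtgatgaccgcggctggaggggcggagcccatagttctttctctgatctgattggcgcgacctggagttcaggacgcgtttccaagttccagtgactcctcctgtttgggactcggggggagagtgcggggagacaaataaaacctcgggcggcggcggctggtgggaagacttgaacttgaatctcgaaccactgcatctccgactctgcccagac

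The SDHD window held the NRF1-type word, there a palindrome, from base 142, the ETS word from base 174 on the reverse strand and the receptor site from base 262 on the reverse strand, with no overlap between them. GLUD1 held the NRF1-type word from base 44, and MPC2 from base 77 on the reverse strand. The MPC2 window printed is 1 of 3 and lies at a start inside the gene, and the other 2 windows, at its outer end, did not hold the word. No word was found in the PDK4 window. The NRF1-type word was in 9 of 34 genes with a window (26.5%), against 12% of 27305 genes with a window and 10.0% of 35116 windows. It was in 3 of the 4 genes with a window that fell in HCC1187 and in 6 of the other 30 (IDH3A, IDH3G, PDHA1, PDK1, SDHA and SUCLA2). The ETS word was in 7 of 34 genes (20.6%), against 12.2% of all genes with a window, and the E-box in 5 (14.7%), against 8.77%. The hypoxia-type word, which shares the letters ACGTG with the E-box, was in PDK1, PDK3 and PDP2 (8.82%, against 3.98%). The receptor site was in SDHD alone (2.94%, against 0.432%) and the SREBP-type word in GOT1 alone (2.94%, against 1.39%).

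In MDA-MB-468 with all 6 libraries, 0 of the 36 genes tested passed in edgeR, where 0.00733% of all genes did. At an unadjusted p under 0.05 there were 8, and 1 gene passed with DESeq2, IDH1 (log2 fold change 0.96 ± 0.26, adjusted p = 0.0227). With S4 set aside, 16 of the 36 rose, 4 fell and the other 16 did not pass. Over all genes 40.7% passed in that fit, 20.0% higher and 20.7% lower. The median log2 fold change of these genes was 0.21 without S4 and 0.15 with it, against 0.00 over all genes in both fits. The 37 genes together held 0.345%, 0.396% and 0.400% of the counts in S4, S5 and S6, against 0.357%, 0.350% and 0.342% in S1 to S3. The median of the 37 genes against the control mean, on the log2(CPM + 1) scale, was −0.02 in S4 and 0.198 in both S5 and S6. OGDHL had too few reads in this line to be tested. The basal-like markers summed to 8881 CPM in S4 and to 6602 and 6593 CPM in S5 and S6, against 8673 to 8807 CPM in sh-CONTROL libraries, and without S4 5 of 7 tested fell and 1 rose, with KRT17 at 124 and 101 CPM in S5 and S6 against 572 to 663 CPM in sh-CONTROL libraries. Luminal markers summed to 3209, 2835 and 2541 CPM in S4 to S6, against 2741 to 3040 CPM in sh-CONTROL libraries, and without S4 2 of 5 tested fell (GATA3 at 25.7 and 23.5 CPM in S5 and S6 against 41.4 to 44.6 CPM in sh-CONTROL libraries, and KRT18). Their part and that of the basal-like markers in these results was not tested.

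IDH1, which makes NADPH in the cytosol by oxidising isocitrate, rose most. S4 had 170 CPM and S5 and S6 363 and 374 CPM, against 160, 149 and 158 CPM in sh-CONTROL libraries. S5 and S6 were far above every control and S4 was just above them. Without S4 it rose 2.35-fold (log2 fold change 1.23 ± 0.08, adjusted p = 1.49e-08 in edgeR), and with S4 it had 0.95 ± 0.26 and did not pass (adjusted p = 0.205). IDH2 stood at 200, 257 and 233 CPM in S4 to S6, against 176, 179 and 182 CPM in sh-CONTROL libraries. All 3 were above the controls, and IDH2 rose without S4 (0.45 ± 0.08, adjusted p = 0.000506) and did not pass with it (0.36 ± 0.11, adjusted p = 0.207). IDH3G, a regulatory subunit of the NAD-linked enzyme, rose without S4 (0.28 ± 0.09, adjusted p = 0.018; with S4 0.23 ± 0.11), whereas CS, IDH3A and IDH3B had 0.12, 0.04 and 0.03 and did not pass.

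On the pyruvate route, both carrier subunits, both phosphatases and 2 of the 4 kinases rose without S4, and 1 kinase fell. MPC1 stood at 42.9 CPM in S4 and at 57.3 and 65.6 CPM in S5 and S6, against 44.1, 37.5 and 45.4 CPM in sh-CONTROL libraries. S4 lay within the controls, and MPC1 rose without it (0.53 ± 0.11, adjusted p = 0.00179 in edgeR; with S4 0.38 ± 0.17, adjusted p = 0.264). MPC2 rose by 0.40 ± 0.10 without S4 (adjusted p = 0.00438; with S4 0.25 ± 0.16, adjusted p = 0.397). PDHB, the beta subunit of the dehydrogenase that makes acetyl-CoA from pyruvate, stood at 62.0, 124 and 123 CPM in S4 to S6, against 72.9, 70.5 and 63.9 CPM in sh-CONTROL libraries. S4 was below every control while S5 and S6 were above, and PDHB rose 1.78-fold without S4 (0.83 ± 0.09, adjusted p = 5.68e-06; with S4 0.57 ± 0.24, adjusted p = 0.248). PDHX, which anchors the shared E3 subunit, rose by 0.35 ± 0.08 without S4 (with S4 0.22 ± 0.14). The alpha subunit PDHA1 (−0.06 ± 0.09), the acetyltransferase core DLAT (0.12 ± 0.08) and the E3 subunit DLD (0.07 ± 0.12) did not pass.

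PDK4, the kinase isoform known for its induction by fasting and fatty acids, had the largest change of the 36 genes tested without S4. It stood at 9.18 CPM in S4 and at 3.21 and 1.24 CPM in S5 and S6, against 13.3, 9.62 and 9.49 CPM in sh-CONTROL libraries, from 58, 23 and 8 counts in S4 to S6 and 119, 70 and 74 counts in sh-CONTROL libraries. All 3 sh-SOX9-AS1 libraries were below the controls, S4 by little. PDK4 fell 4.78-fold without S4 (−2.26 ± 0.32, adjusted p = 5.36e-05 in edgeR), and with S4 it had −1.26 ± 0.53 and did not pass (adjusted p = 0.255). Leaving out a further library moved the log2 value between −3.12 without S5 and −1.75 without S6. PDK1, the hypoxia-responsive isoform, stood at 45.7, 96.3 and 98.6 CPM in S4 to S6, against 59.1, 51.2 and 57.1 CPM in sh-CONTROL libraries. S4 was below every control and S5 and S6 were above, and PDK1 rose 1.74-fold without S4 (0.80 ± 0.10, adjusted p = 1.36e-05; with S4 0.52 ± 0.26, adjusted p = 0.297). PDK2 rose without S4 (0.90 ± 0.24, adjusted p = 0.00766; with S4 0.73 ± 0.29, adjusted p = 0.239), but it stood at 9.65, 16.2 and 12.4 CPM in S4 to S6 against 5.48, 6.87 and 10.8 CPM in sh-CONTROL libraries and did not pass without S4 and S5 (adjusted p = 0.149). It also shares 38.6% of its exon bases with SAMD14 on the opposite strand. PDK3 had 0.21 ± 0.09 without S4 and did not pass.

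PDP2 stood at 11.9 CPM in S4 and at 29.2 and 33.3 CPM in S5 and S6, against 15.2, 17.7 and 15.1 CPM in sh-CONTROL libraries. S4 was again below every control, and PDP2 rose 1.94-fold without it (0.96 ± 0.14, adjusted p = 7.04e-05 in edgeR; with S4 0.63 ± 0.33, adjusted p = 0.314). PDP1 rose by 0.36 ± 0.11 without S4 (adjusted p = 0.0131; with S4 0.23 ± 0.15, adjusted p = 0.392), a call that is lost when S2 or S5 is left out too (adjusted p = 0.0625 and 0.123).

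Further round the cycle, subunits of succinyl-CoA ligase and succinate dehydrogenase and 1 malate dehydrogenase rose without S4. SUCLG2, the beta subunit of the GTP-forming succinyl-CoA ligase, rose by 0.58 ± 0.12 (adjusted p = 0.00142 in edgeR; with S4 0.37 ± 0.21), and the shared alpha subunit SUCLG1 rose by 0.29 ± 0.10 (adjusted p = 0.0349; with S4 0.17 ± 0.14). SUCLA2, the beta subunit of the ATP-forming enzyme, had 0.29 ± 0.14 and did not pass. SDHA, the catalytic subunit of succinate dehydrogenase, stood at 49.1, 71.8 and 64.4 CPM in S4 to S6, against 47.6, 46.7 and 46.0 CPM in sh-CONTROL libraries. It was above the controls in all 3 libraries and rose without S4 (0.54 ± 0.10, adjusted p = 0.000574; with S4 0.40 ± 0.15). The SDHA pseudogene SDHAP1 stood at 11.6 to 18.7 CPM in S4 to S6 and at 12.98 to 14.62 CPM in sh-CONTROL libraries. SDHAP3 stood at 13.5 to 14.1 CPM in S4 to S6 and at 12.4 to 14.3 CPM in sh-CONTROL libraries. Whether reads of SDHA and these copies were told apart was not tested. SDHB (−0.11 ± 0.10), SDHC (0.07 ± 0.09) and SDHD (0.02 ± 0.12, with S4 −0.16 ± 0.20) did not pass. MDH1, the cytosolic malate dehydrogenase, rose by 0.46 ± 0.08 (adjusted p = 0.000314; with S4 0.33 ± 0.14), whereas the mitochondrial MDH2 (−0.10 ± 0.08) and fumarase FH (−0.22 ± 0.09) did not pass.

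GLUD1 rose by 0.28 ± 0.08 without S4 (adjusted p = 0.0158 in edgeR; with S4 0.20 ± 0.11). Besides PDK4, 3 genes fell without S4. ME2, the NAD-linked malic enzyme, fell by 0.27 ± 0.10 (adjusted p = 0.0376; with S4 −0.19 ± 0.12), DLST, the succinyltransferase core of 2-oxoglutarate dehydrogenase, by 0.23 ± 0.09 (adjusted p = 0.0486; with S4 −0.15 ± 0.10), and GOT2 by 0.22 ± 0.08 (adjusted p = 0.038; with S4 −0.08 ± 0.13). These 3 calls are weak. Each is lost with DESeq2 (adjusted p = 0.0939 for ME2, 0.12 for DLST and 0.076 for GOT2). They are also lost with no filter on low counts and without S1 or S2. Some rises are weak too. SUCLG1 did not pass with DESeq2 (adjusted p = 0.0586) or, in edgeR, with library totals only (0.0537) or without S2 (0.122). IDH3G (0.123) and GLUD1 (0.0524) did not pass in edgeR without S2. Fits that also leave out S5 or S6 rest on a lone sh-SOX9-AS1 library. The rises of SUCLG1, IDH3G, GLUD1 and MPC2 were not kept in every such fit. Without S6 the log2 fold change was 0.33 for SUCLG1, 0.32 for IDH3G, 0.25 for GLUD1 and 0.36 for MPC2. Without S5 it was 0.27 for SUCLG1 and 0.26 for IDH3G. OGDH (−0.19 ± 0.08), ME3 (0.13 ± 0.15) and GOT1 (0.22 ± 0.09) did not pass. The 16 genes that did not pass without S4 lay between −0.16 and 0.17 with it. With S4, the log2 fold changes of the 16 genes that rose lay between 0.17 and 0.95 and those of the 4 that fell between −1.26 and −0.08. Of the 20 calls, 11 passed in every setting tried without S4. Groups of 3 did not overlap for IDH1, IDH2, IDH3G and SDHA (all above) and for PDK4 and ME2 (below), against 19.5% of all genes.

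SDHD was the gene in which S4 departed most from its controls. It stood at 47.8 CPM in S4, against 82.9, 75.4 and 61.9 CPM in sh-CONTROL libraries, while S5 and S6 had 68.6 and 81.3 CPM and lay within the controls. It was the 1 gene of the 37 that differed from the control mean by more than 0.5 (log2) in S4, against 8 genes in S5 and 9 in S6.

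**Figure D3:**
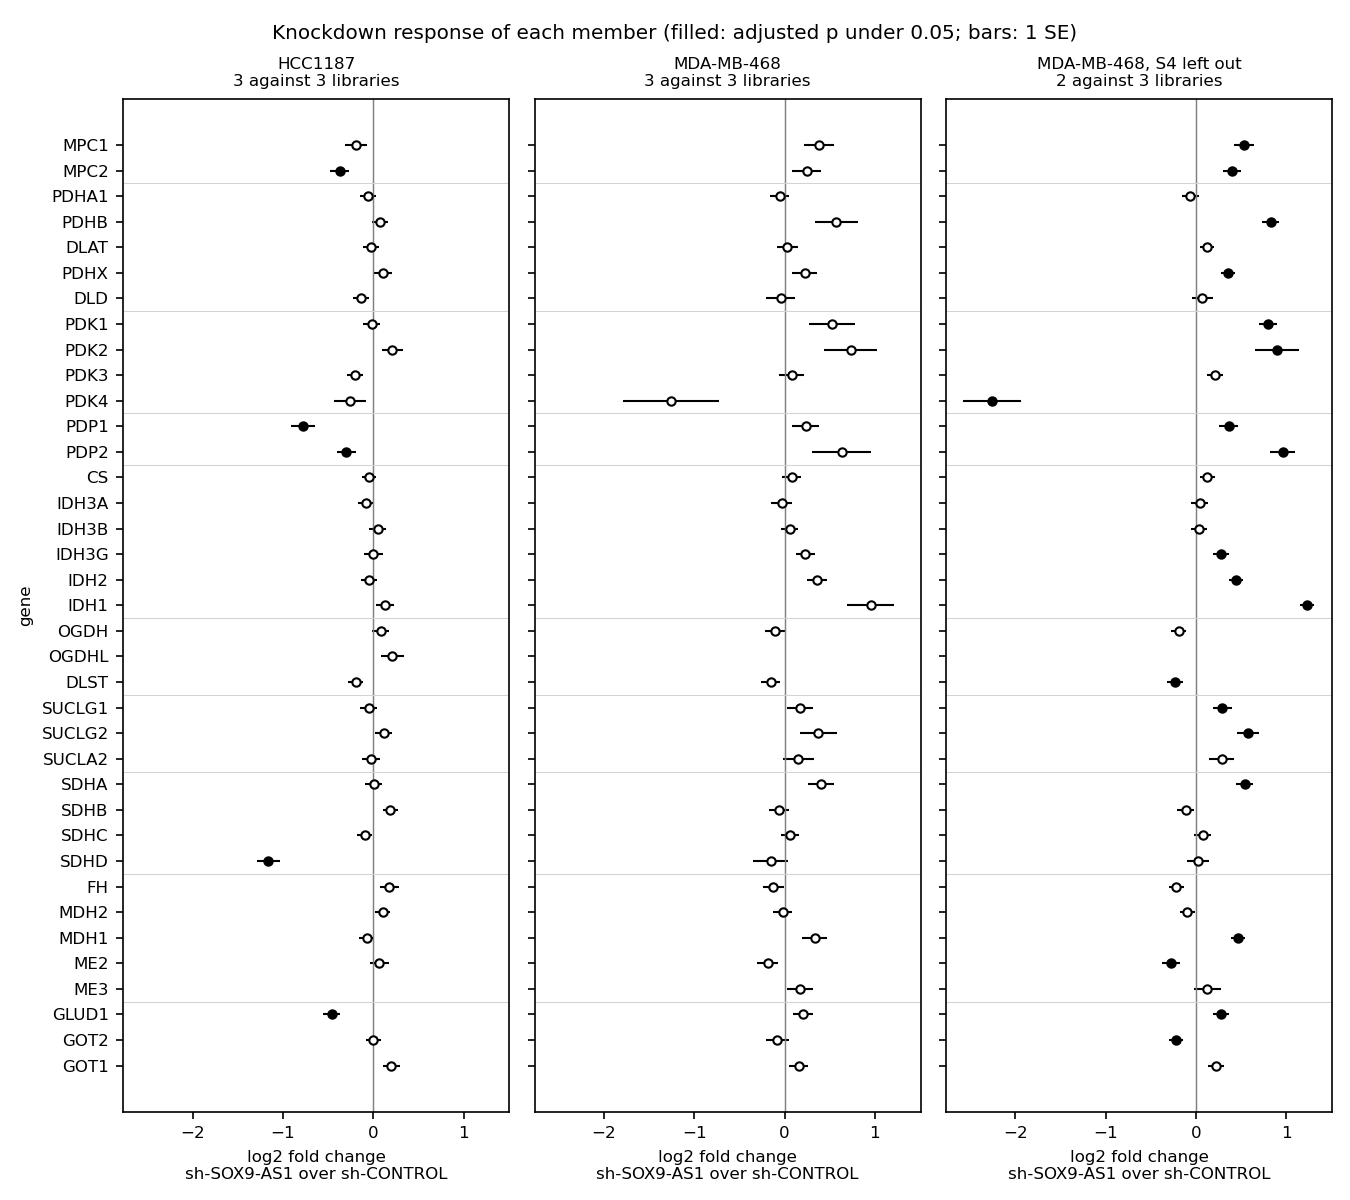
Each row is a gene and each panel a comparison; points are log2 fold changes, bars are 1 SE and filled points passed. In HCC1187 5 points are filled, all left of 0; in MDA-MB-468 0 are filled with all 6 libraries, and without S4 16 are filled to the right and 4 to the left.

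A gene that passes in 1 line only is not shown to differ between the lines, so the difference itself, HCC1187 response minus MDA-MB-468 response, was tested over all 12 libraries. PDP1 (−1.004 ± 0.23, adjusted p = 0.0259 in edgeR), GLUD1 (−0.65 ± 0.15, adjusted p = 0.0323) and SDHD (−1.003 ± 0.27, adjusted p = 0.0492) passed of the 37 genes, where 3.75% of all genes did. Each had the lower response in HCC1187. None of the 3 passed in every fit that leaves a library out, and 0 of the 37 passed without S1, S2, S5, S6, S8, S9 or S10. SDHD did not pass with library totals as the only scaling (adjusted p = 0.0586). Without S4, 17 genes differed, where 25.6% of all genes did. PDK4 (2.003 ± 0.37, adjusted p = 0.000229; 1.48 to 2.88 when a further library was left out) and FH (0.40 ± 0.14, adjusted p = 0.0305) had the higher response in HCC1187. The FH call is lost with no filter on low counts (adjusted p = 0.0922) and in 6 of 11 fits that leave out a further library (S1, S2, S5, S6, S9 or S12). The other 15 had the lower one, among them PDP2 (−1.26 ± 0.17), SDHD (−1.18 ± 0.19), PDP1 (−1.14 ± 0.18) and IDH1 (−1.10 ± 0.12). With library totals as the only scaling, 20 differed without S4, 7 higher and 13 lower. PDK2 (adjusted p = 0.0842 in edgeR) and SUCLG2 (0.0636) did not pass in that setting. With TMM and both S5 and S6 kept, PDK2 was also lost without S1, S2, S7, S8, S9, S11 or S12, and SUCLG2 without S2 or S8. Neither call is free of the lone library left when S5 or S6 is removed. The difference shrank to −0.47 for PDK2 without S5 and to −0.37 for SUCLG2 without S6. MPC2, PDP1, PDP2 and GLUD1 fell in HCC1187 and rose in MDA-MB-468 without S4, a pattern of 4 of the 35 genes tested in both fits, against 2.69% of 12421 genes. The same direction was called in both lines for 0 of the 35, against 5.78%. The falls of MPC2 and PDP2 in HCC1187 were lost in some settings. In MDA-MB-468 without S4, the rises of PDP1 and GLUD1 did not pass when S2 was also left out (adjusted p = 0.0625 and 0.0524 in edgeR). None of the 4 genes kept both calls in every setting.

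Genes next to the cycle were read from lists chosen with earlier results of these data known. With all 6 MDA-MB-468 libraries 0 genes of these lists passed, so the MDA-MB-468 values that follow are without S4. With S4 the MDA-MB-468 genes named in them had 0.36 to 1.85, and MYC −0.94 (adjusted p between 0.205 and 0.276). The counts are to be read against 22.8% of all genes called in HCC1187 (13.1% lower, 9.78% higher) and 40.7% in MDA-MB-468 without S4 (20.7% lower, 20.0% higher). Of 12 further enzymes and assembly factors of the cycle, 3 rose and 2 fell in HCC1187, with a median log2 fold change of 0.12 against 0.01 over all genes. DHTKD1, a 2-oxoadipate dehydrogenase akin to OGDH, fell by 0.70 ± 0.09 (adjusted p = 4.04e-06 in edgeR), and the cytosolic malic enzyme ME1 fell by 0.42 ± 0.12. SDHAF3 (0.46 ± 0.13) and SDHAF4 (0.42 ± 0.14), which help to assemble succinate dehydrogenase, rose. In MDA-MB-468 5 of the 12 rose and 0 fell, among them ME1 (0.74 ± 0.09), SDHAF4 (1.18 ± 0.20) and the cytosolic aconitase ACO1 (0.53 ± 0.10). The difference between the lines passed with all 12 libraries for DHTKD1 (−0.77 ± 0.14, adjusted p = 0.0104) and ME1 (−0.95 ± 0.24, adjusted p = 0.0406).

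Of 11 genes of glutamine, alanine and aspartate metabolism tested in HCC1187, 6 fell and 1 rose (median −0.31). GLUL, glutamine synthetase, fell by 0.58 ± 0.08 (adjusted p = 3.51e-05 in edgeR), and the amino acid transporter SLC38A2 by 0.58 ± 0.11. In MDA-MB-468 5 of 11 rose and 0 fell (median 0.32), with GLUL at 1.35 ± 0.08 and SLC38A2 at 0.74 ± 0.09. The difference between the lines passed with all 12 libraries for GLUL (−1.62 ± 0.31, adjusted p = 0.0138) and SLC38A2 (−1.07 ± 0.28, adjusted p = 0.0474).

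At the pyruvate branch point 2 of 11 genes rose and 2 fell in HCC1187. LDHA, which turns pyruvate into lactate, fell there by 0.76 ± 0.10 (adjusted p = 1.37e-05 in edgeR), and PC, which carboxylates pyruvate to oxaloacetate, rose by 0.49 ± 0.16. In MDA-MB-468 4 of 10 rose and 3 fell, with LDHA at 0.49 ± 0.08 and PC at 0.80 ± 0.09. The LDHA difference passed with all 12 libraries (−1.11 ± 0.19, adjusted p = 0.00694). Of 6 genes that make or use acetyl-CoA, 0 passed in HCC1187, while in MDA-MB-468 5 rose and 1 fell. In MDA-MB-468 FASN had 2.27 ± 0.09, ACSS2 1.76 ± 0.09 and ACLY, which splits exported citrate, 1.43 ± 0.07. ACSS2 was the 1 gene of the 6 whose difference between the lines passed with all 12 libraries (−1.68 ± 0.39, adjusted p = 0.031). The citrate carrier SLC25A1 rose in MDA-MB-468 by 1.04 ± 0.10, 1 of 8 carriers to rise, and 1 fell. In HCC1187 3 of 7 carriers rose and 0 fell, with the aspartate-glutamate exchanger SLC25A13 at 0.44 ± 0.10 and its difference between the lines at 0.58 ± 0.15 (adjusted p = 0.0484). Of the regulators of mitochondrial metabolism 1 of 12 rose and 4 fell in HCC1187, and 2 of 10 rose and 3 fell in MDA-MB-468. MYC fell in both lines, by 0.47 ± 0.11 in HCC1187 and by 1.77 ± 0.10 in MDA-MB-468.

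Within enzyme families the balance of members was described by their shares of the family's CPM per kb of gene length. That length covers annotated exons, such as 14160 bases for SDHC and 2324 for SDHB. It need not be the length of the transcript expressed, so shares and ranks per kb depend in part on annotation. SDHD held 9.06%, 12.5% and 14.1% of the 4 succinate dehydrogenase genes in HCC1187 sh-SOX9-AS1 libraries, against 25.0%, 25.5% and 25.2% in sh-CONTROL libraries. SDHB held 71.1%, 68.3% and 67.0% of them in sh-SOX9-AS1 libraries, against 56.9%, 56.4% and 55.1% in sh-CONTROL libraries. PDP2 held 54.1%, 46.7% and 50.5% of the phosphatase pair in HCC1187 sh-SOX9-AS1 libraries, against 43.1%, 41.7% and 40.7% in sh-CONTROL libraries. These groups did not overlap, and the shares were not tested. Shares within a family are tied to each other. The higher shares of SDHB and PDP2 therefore follow at least in part from the falls of SDHD and PDP1, and are not separate results. SDHB itself did not pass and PDP2 itself fell. In MDA-MB-468, PDK4 held 15.5%, 3.79% and 1.55% of the 4 kinases in S4, S5 and S6, against 18.8%, 15% and 14.1% in sh-CONTROL libraries, and IDH1 held 33.6%, 45.7% and 48.9% of the NADP-linked pair in S4 to S6, against 35.2%, 33.2% and 34.1% in sh-CONTROL libraries. Both shares of S4 lay within the controls, and S5 and S6 lay outside them. SDHD held 23.8%, 32.2% and 34.5% of its family in S4 to S6, against 36.8%, 33.5% and 28.4% in sh-CONTROL libraries, with S4 alone outside them.

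**Figure D4:**
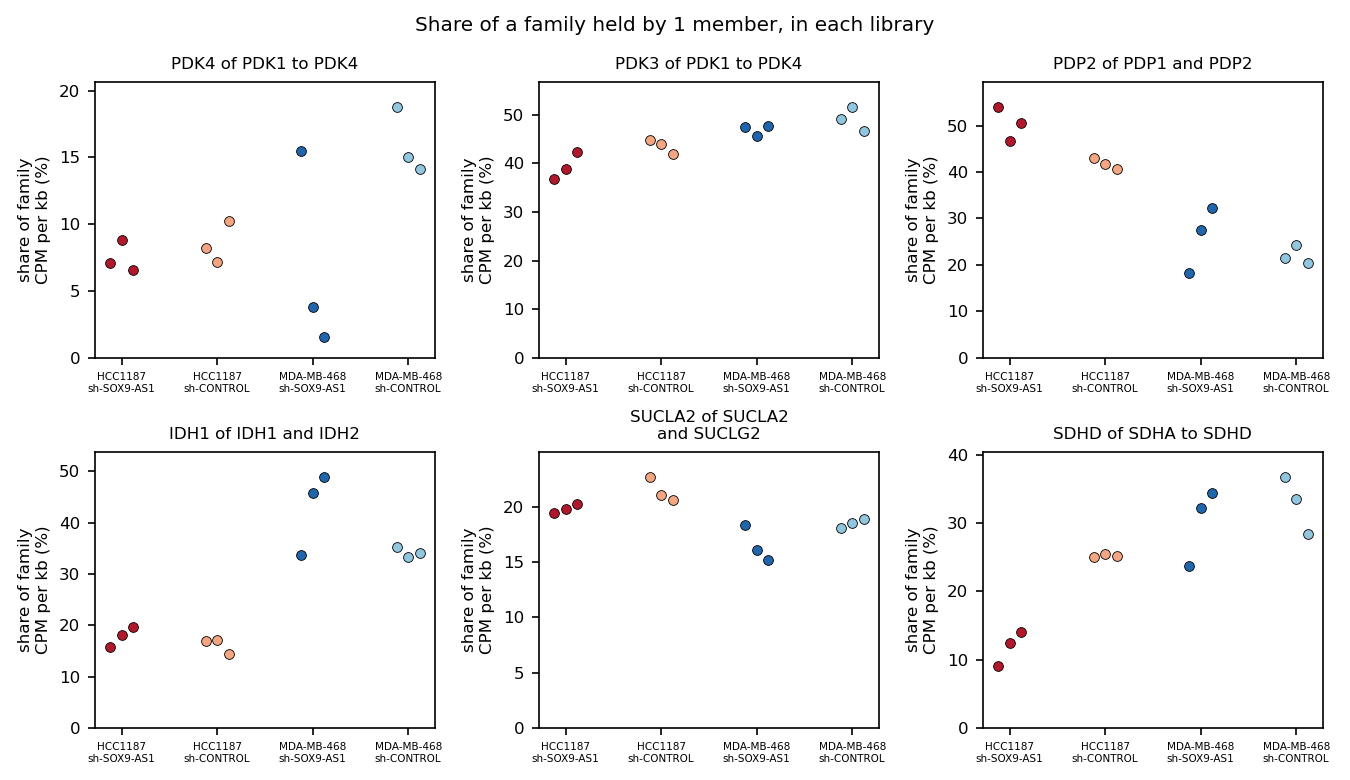
Each panel gives the share of a family's CPM per kb (in %, axis from 0) held by 1 member, and each point is 1 library. The SDHD share is 9.06% to 14.1% in HCC1187 sh-SOX9-AS1 libraries and 25.0% to 25.5% in their controls, and the PDK4 share is low in 2 of the 3 MDA-MB-468 sh-SOX9-AS1 libraries, S4 being the other.

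At baseline the sh-CONTROL libraries of the lines differed in most of these genes, as in most genes. Of the 37, 16 were higher in HCC1187 than in MDA-MB-468, 15 were lower and 6 did not pass, where 84.1% of all genes passed. Libraries did not overlap for 31 of them and for 83.8% of all genes. Line and culture medium cannot be told apart in this comparison. The median log2 difference, HCC1187 over MDA-MB-468, was 0.01 for the 37 genes and 0.06 for all genes with TMM scaling, and with library totals alone the median of all genes was 0.29. With library totals, 32 genes passed.

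FH, fumarase, differed most among the well-read genes. It stood at 34.1, 32.1 and 28.7 CPM in HCC1187 controls, against 283, 278 and 245 CPM in MDA-MB-468 controls, 8.42-fold lower in HCC1187 (log2 −3.07 ± 0.09, adjusted p = 4.27e-18 in edgeR). Per kb it led the 37 genes in MDA-MB-468 at 125 ± 9.59 CPM, where IDH2 followed at 63.6 ± 1.03, and it ranked 21 in HCC1187 at 14.8 ± 1.26. In HCC1187 the highest level per kb was that of MDH2 at 62.2 ± 4.81, followed by IDH2 at 54.3 ± 4.2, GOT2 at 52.2 ± 0.895 and SDHB at 52.0 ± 1.63, which lie within their spread of each other from IDH2 down. ME3 stood at 0.48, 0.32 and 0.21 CPM in HCC1187 controls, against 18.8, 15.8 and 19.8 CPM in MDA-MB-468 controls. From summed counts of 10 and 437 that is 53.4-fold lower in HCC1187, with an exact 95% interval of 28.7 to 112 for counting error alone. OGDHL, a neural form of OGDH, ran the other way, with 19.0, 17.8 and 20.7 CPM in HCC1187 controls, against 1.01, 0.55 and 0.90 CPM in MDA-MB-468 controls, 23.0-fold higher in HCC1187 (14.8 to 38.0). ME3 and OGDHL passed the filter on low counts only through the line in which they are high, so their calls had to follow.

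Among the other members, IDH1 (log2 −1.65 ± 0.08), PDHX (−1.47 ± 0.09), IDH3G (−1.41 ± 0.09) and OGDH (−1.37 ± 0.08) were lower in HCC1187. PDK2 (1.87 ± 0.17), PDP2 (1.40 ± 0.11), SUCLA2 (1.32 ± 0.11) and SUCLG2 (1.06 ± 0.10) were higher there. Of the pyruvate dehydrogenase kinases PDK1, PDK2 and PDK3 were higher in HCC1187 and PDK4 did not pass, and both carrier subunits were lower. Of the genes that fell on knockdown in HCC1187 SDHD (−0.16 ± 0.10) and PDP1 (0.05 ± 0.10) did not pass, though with library totals PDP1 did (0.29 ± 0.10, adjusted p = 0.00994), and GLUD1 was higher in HCC1187 (0.54 ± 0.08). MPC2, by contrast, was lower in HCC1187 (−0.72 ± 0.09).

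**Figure D5:**
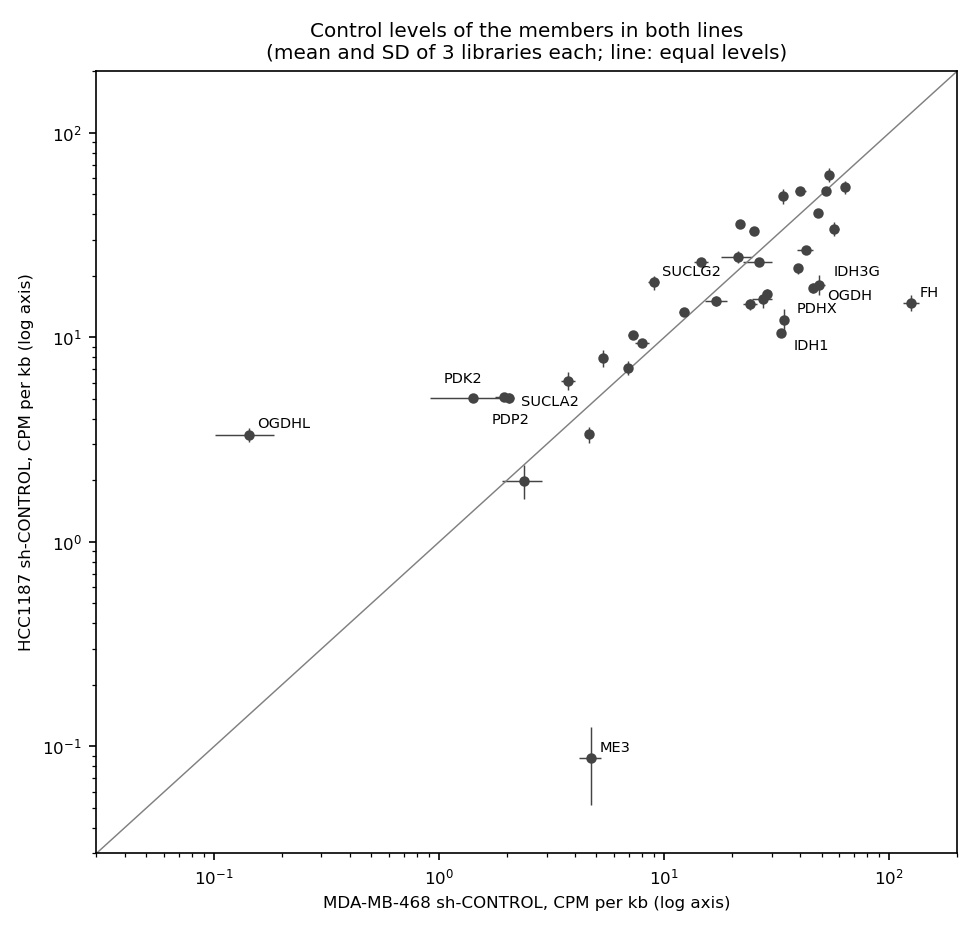
Each point is 1 of the 37 genes, with its mean and SD in CPM per kb over the 3 MDA-MB-468 sh-CONTROL libraries (horizontal, log axis) and the 3 HCC1187 sh-CONTROL libraries (vertical, log axis); the line marks equal levels and genes at least 1 apart on the log2 scale are named. FH (14.8 in HCC1187 and 125 in MDA-MB-468) and ME3 lie far below the line and OGDHL far above it.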

How the data were processed

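The values are gene counts that the authors deposited, 1 table per line, without normalization. Per the submitters' processing notes the genome was GRCh38, and the tools named are featureCounts 2.0.0, HISAT2 2.1.0, Trimmomatic 0.39, SAMtools, FastQC 0.11.9 and MultiQC 1.11; parameters, annotation release and use of strand are not stated there. Per the labels the kit was a stranded TruSeq mRNA kit with paired fragments of 76 bp and TRIzol RNA. Each library has 3 lane columns and no replicate number, so a group had more columns than samples: lane 1 was used, 24 of 36 count columns were not, and the lanes were not summed. Columns are S1 to S12 by library number and tied to a group only. BLANCO stands in the names of knockdown columns without explanation.

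Counts were tested with edgeR 4.0.16 (glmQLFTest) under R 4.3.3, with TMM scaling and genes kept by filterByExpr at a count of 10 and a total of 15, each line by itself, the difference between the lines as an interaction over 12 libraries and the baseline over the 6 controls. The scripts were tested on simulated data. A standard error is the size of the log2 fold change over the root of F. The log scale for single libraries is log2(CPM + 1). Lengths came from the deposited tables, coordinates and overlaps from GENCODE v29 (GRCh38) and promoters from RefSeq (GRCh38.p14). The exact interval covers counting error only. DESeq2 1.42.0, other scalings and filters, joint fits and leaving out each library were the alternatives.

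All 37 genes are named; of the other lists, up to 4 genes per comparison by smallest p. Members, lists and tests were chosen with earlier results of these data known, and S4 was set aside on those results. HCC1187 and MDA-MB-468 are human triple-negative breast cancer lines.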

Additional observations from a re-analysis of the deposited data

Results flagged for a closer look

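Genes whose response differed between the lines by the interaction test were marked for a closer look, as HCC1187 response minus MDA-MB-468 response in log2 units. With all 12 libraries they were PDP1 (−1.004), SDHD (−1.003) and GLUD1 (−0.65), where 3.75% of all genes passed.

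Without S4 there were 17. On the pyruvate route they were MPC1 (−0.72), MPC2 (−0.77), PDHB (−0.75), PDK1 (−0.81), PDK2 (−0.69), PDK3 (−0.41), PDK4 (2.003), PDP1 (−1.14) and PDP2 (−1.26). In the cycle they were IDH1 (−1.10), IDH2 (−0.49), SUCLG2 (−0.46), SDHA (−0.53), SDHD (−1.18), FH (0.40) and MDH1 (−0.54), with GLUD1 (−0.73) on the glutamate route. With S4 left out, 12 of the 17 passed in every setting tried.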

How the results depend on the processing

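No paired analysis was possible because the count columns carry no replicate number. Leaving out 1 library at a time gave 3 to 5 genes in HCC1187, 0 to 20 in MDA-MB-468 (20 without S4, 0 otherwise), 0 to 17 for the difference between the lines (17 without S4) and 29 to 32 at baseline. With S4 left out and a further library removed it gave 13 to 23 in MDA-MB-468, lowest without S2 or S5, and 13 to 18 for the difference; without S5 or S6 a lone sh-SOX9-AS1 library is assumed to vary like the controls. The lowest count in HCC1187 came without S7. In MDA-MB-468 with S4, no filter on low counts gave 5 genes (PDHB, PDK1, PDP2 and IDH1 higher, PDK4 lower), and DESeq2 and all 12 libraries in 1 fit gave 1 each, IDH1. For the difference no filter gave 7. These fits use the same libraries and are not separate support. The cause of these shifts was not tested.

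At baseline IDH2 had 0.0149 (adjusted p = 0.849 in edgeR) with library totals only, against −0.22 with TMM, the 1 call to change sign. Over all genes, HCC1187 had 3418 calls, 1499 with all 12 libraries in 1 fit and 2213 without S8, and 57.7% of calls were rises with library totals against 42.8%. MDA-MB-468 had 1 call, 1441 with no filter, 304 with DESeq2, 887 with all 12 libraries, 5676 without S4 and 0 without any other library. Without S4 it had 3675 and 3422 calls when S5 or S6 was also left out. The difference had 613 calls, 1415 with no filter, 1170 with DESeq2 and 129 to 4300 with 1 library left out, and without S4 4300 calls, 2855 when S6 was also left out. Its share of rises with library totals was 46.9% against 33.0%, and 59.2% against 48.6% without S4. Genes of few counts, ME3 and SOX9-AS1 in HCC1187 and OGDHL and PDK4 in MDA-MB-468, are limited by the depth of the 1 lane used.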
